A study of Rattus norvegicus with 15 samples.

Results

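The genes described here are 35 rat genes of fatty acid oxidation and lipid handling, taken by symbol from the 28914 genes of a count table. They are 6 genes of the carnitine shuttle, 11 of mitochondrial beta-oxidation, 3 of the electron transfer flavoprotein system, 3 of peroxisomal beta-oxidation, 2 acyl-CoA thioesterases, 3 genes of lipid handling and uncoupling, 4 acyl-CoA synthetases and 3 PPAR regulators. All 35 were in the table. Of these, 34 passed the filter on low counts and were tested, and Acot1, with 0 to 10 reads per library, was not.

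The rats were of the Lewis strain, and their islets of Langerhans were isolated 10 weeks after removal of 90% of the pancreas (partial pancreatectomy, Px) or after a sham operation (Sham). Polyadenylated RNA of the islets was sequenced. The labels give the rats' age as 4 to 5 weeks and do not say whether this was at surgery. They also give each rat's average blood glucose, without a unit, and the stated aim was to follow the effect of high blood glucose on islets after Px. Higher-glucose Px rats (n = 3) lay between 416 and 464, lower-glucose Px rats (n = 7) between 104 and 211, and Sham rats (n = 5) between 88 and 96. Each library was taken as 1 rat, and p-values measure the spread between these libraries.

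Fatty acids are first activated to acyl-CoA by acyl-CoA synthetases. CPT1 on the outer mitochondrial membrane, the carrier SLC25A20 and CPT2 on the inner membrane then move long acyl chains into the mitochondrion, where acyl-CoA dehydrogenases, hydratases, 3-hydroxyacyl-CoA dehydrogenases and thiolases shorten them in repeated turns. Electrons from the first step pass through the electron transfer flavoprotein (ETFA and ETFB) and its dehydrogenase (ETFDH) to the respiratory chain, and peroxisomes shorten the longest chains. PPAR nuclear receptors and the coactivator PGC-1alpha control many of these genes in liver and muscle. In beta cells, malonyl-CoA made during glucose metabolism blocks CPT1, and the short-chain enzyme HADH is known for its high level and for restraining insulin secretion evoked by amino acids.

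Library totals ran from 19.1 to 33.4 M counts (M for 1e6) in Px and from 12.2 to 18.4 M in Sham. Levels below are CPM, counts scaled to a library of 1e6, on library sizes scaled by the trimmed mean of M-values (TMM), and levels compared between genes are also divided by exon length (RPKM). Of 10 beta cell markers 9 were in the table and none stayed below 1 CPM, but the share of all counts from 25 acinar cell markers was 34.6% ± 9.91 in Px (SD, n = 10) and 5.66% ± 5.95 in Sham (SD, n = 5). The share from 9 beta cell markers was 5.65% ± 2.20 in Px and 16.8% ± 4.93 in Sham. Macrophage markers took 0.133% in Px and 0.00825% in Sham, and fibroblast markers 0.538% in Px and 0.0783% in Sham. The libraries also fell into a first set (labels numbered 2 to 11, 23 and 24) and a second set (13 to 19 and 25 to 27), a split noticed in the counts and named by the labels' numbers only: the first principal component of the group-centred data, 27.2% of the variance, ran from -45.3 to -13.9 in the first set and from 7.98 to 48.5 in the second. All 3 higher-glucose Px libraries are in the second set.

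In Px islets 4 mitochondrial acyl-CoA dehydrogenase genes, the flavoprotein genes Etfa and Etfb, the lipid droplet coat gene Plin2, the lipase inhibitor gene Angptl4 and the receptor gene Ppard were higher than in Sham, and Hadh, Cpt2, Slc25a20, Acaa1a and Ppara were lower. Scaled by library totals, the sign turned for Acadm, Acads, Acadvl and Etfa (-0.04, -0.13, -0.09 and -0.39), and scaled by endocrine granule genes for Slc25a20 and Acaa1a (0.10 and 0.05). The largest rise was in Angptl4 (log2 fold change 5.21 ± 0.65 SE) and the largest fall in Hadh (-0.96 ± 0.11). By edgeR's quasi-likelihood test with Benjamini-Hochberg adjustment at 0.05, 14 of 34 tested genes were higher and 5 lower in Px, and 15 did not pass. Among all 15199 genes tested, 34.5% were called higher and 30.2% lower, so a call in this comparison was common, and the share of 41.2% higher is near that background while the share of 14.7% lower is below it. The median log2 fold change was 0.20 over the 34 genes and 0.02 over all genes tested.

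The split of the calls depended on the scaling of the libraries. Scaled by library totals, 2 of the 34 genes were higher and 16 lower in Px, against 17.5% and 52.3% of all genes. Scaled by 8 endocrine granule genes, 26 were higher and 1 lower, against 48.9% and 6.57% of all genes. The median of all genes moved with it, to -0.62 and 0.46, and the 34 genes stood 0.17 and 0.18 above that median, against 0.18 with TMM. That offset was -0.01 without the filter on low counts, -0.10 with the acinar score as a covariate, 0.39 with the macrophage score and 0.72 with the fibroblast score. Of the 19 calls, 3 were also made under all 3 other scalings tried (DESeq2 size factors, library totals and endocrine granule genes): Hadh lower, and Angptl4 and Ppard higher. With the acinar marker score as a covariate 4 genes were higher and 5 lower in Px (20.9% and 17.0% of all genes), with the fibroblast score 8 and 1 (7.95% and 4.38% of all genes), and with the macrophage score 0 and 0, where edgeR also called 0 of all 15199 genes. A call lost with the macrophage score, here and below, is therefore no result about a single gene.

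**Figure D1:**
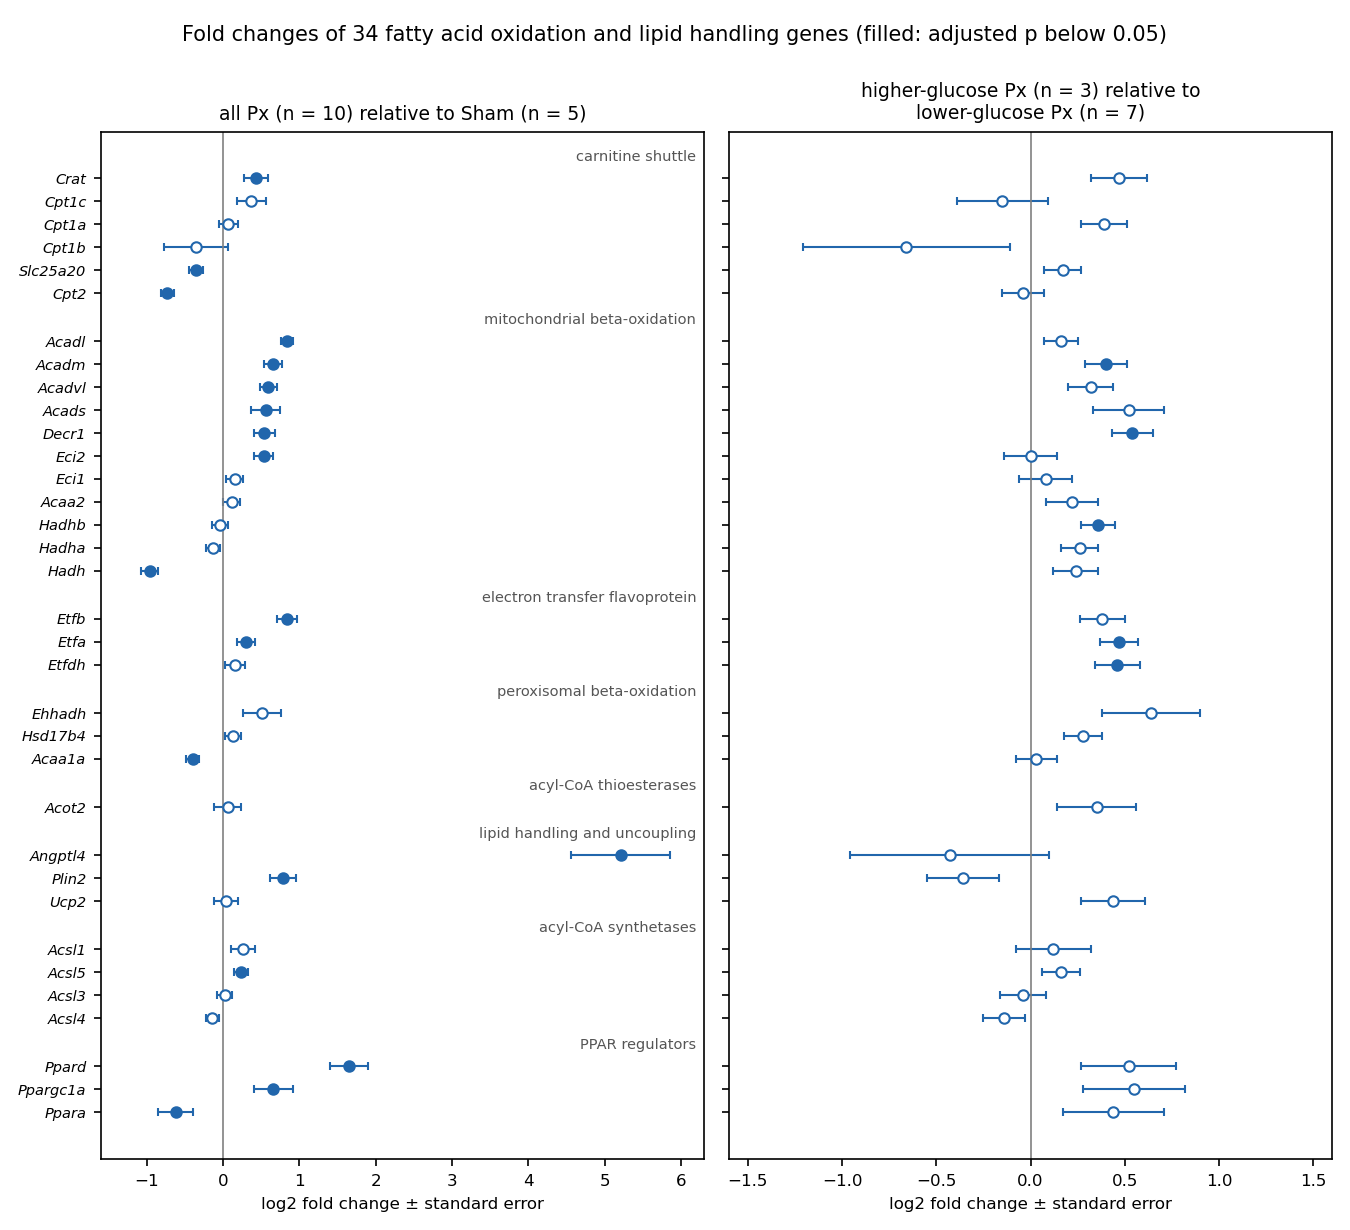
Log2 fold change ± standard error of the 34 tested genes, grouped by role, for all Px relative to Sham (left) and for higher- relative to lower-glucose Px (right). Filled points passed the adjusted p of 0.05 and open points did not. With TMM scaling, on the left side Angptl4 lies farthest right at 5.21 and Hadh farthest left at -0.96. On the right side the 5 filled points all lie right of 0.

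The carnitine shuttle was uneven: with TMM scaling its inner-membrane steps were lower in Px, Cpt1a of the outer membrane did not pass, and the acetyl-carnitine enzyme gene Crat was higher. With library totals the values were -0.61 for Cpt1a and -0.24 for Crat, and Cpt1a was higher in higher-glucose Px than in Sham (0.33 ± 0.12, edgeR adjusted p = 0.0321). Cpt2 (chromosome 5, 127505614 to 127523089 in the count table's own build), which rebuilds acyl-CoA in the matrix, ranged from 29.3 to 38.0 CPM with a median of 34.8 in Px, against 48.6, 50, 64.1, 61.9 and 57.9 CPM in Sham. Every Px library lay below every Sham library. Cpt2 fell by 0.73 ± 0.08 on the log2 scale (adjusted p = 1.25e-06 by the edgeR test), by 0.55 within the first library set and by 0.85 within the second. Slc25a20, the carrier that trades acyl-carnitine for carnitine, ranged from 32.8 to 39.6 CPM with a median of 35.8 in Px, against 39.2, 40.0, 47.2, 56.3 and 46.5 CPM in Sham. The ranges overlapped, and the fall of 0.36 ± 0.09 passed the test (edgeR adjusted p = 0.00156), but not within the first library set (-0.23, adjusted p = 0.0595). The Slc25a20 call was also lost with endocrine granule scaling, with the fibroblast score as a covariate and, as every gene's call was, with the macrophage score.

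Cpt1a, the liver isoform and the main one by level here, ranged from 26.4 to 49.6 CPM with a median of 31.0 in Px, against 30.7, 30.6, 30.9, 30.0 and 33 CPM in Sham. The Px values spread to both sides of the narrow Sham range, and the difference did not pass (0.07 ± 0.12, edgeR adjusted p = 0.639). Per exon length Cpt1a stood at 7.52 RPKM in Px and 7.18 RPKM in Sham, above Cpt1b, the muscle isoform, with 1.33 RPKM in Px and 1.70 RPKM in Sham, and Cpt1c, the brain isoform, with 1.18 RPKM in Px and 0.92 RPKM in Sham. Crat, carnitine acetyltransferase, averaged 20.2 ± 5.14 CPM in Px and 14.9 ± 1.77 CPM in Sham, higher by 0.43 ± 0.16 (edgeR adjusted p = 0.0222). Crat did not pass without Sham replicate 24 or 27 (0.41 and 0.39) or within the first library set (0.32, adjusted p = 0.143). Its call was also lost with library totals and with the acinar, the macrophage or the fibroblast score as a covariate.

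Cpt1b differed more between the library sets than between Px and Sham (-0.35 ± 0.42, edgeR adjusted p = 0.478). It stood at 2.30 to 8.64 CPM with a median of 4.74 in Px, against 12.9, 11.1, 2.97, 1.78 and 3.55 CPM in Sham. The 7 libraries of the first set held 5.61 to 12.9 CPM and the 8 of the second 1.78 to 3.87 CPM, with no overlap. It was the only gene of the 35 whose sets did not overlap, at -1.47 for the second set relative to the first (edgeR adjusted p = 9.99e-05). Within the first set Px was lower than Sham by 0.80 (edgeR adjusted p = 0.0106), and within the second the difference was 0.16 (adjusted p = 0.626). Its exons share 368 bases on the same strand with those of Chkb, and how reads there were counted is not known. Cpt1c ranged from 2.10 to 4.38 CPM with a median of 3.28 in Px, against 3.54, 2.73, 2.45, 2 and 1.83 CPM in Sham. The groups overlapped (0.37 ± 0.19, edgeR adjusted p = 0.101), though without Sham replicate 23 or lower-glucose replicate 14 Cpt1c passed (0.52 and 0.44). Set differences were not confined to Cpt1b. With surgery in the edgeR fit, 14 of the 34 tested genes differed between the library sets, against 25.2% of all 15199 genes. That fit held no glucose term, and all higher-glucose libraries are in the second set. Set and glucose therefore cannot be fully told apart in it, and the sets were chosen after seeing the data.

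**Figure D2:**
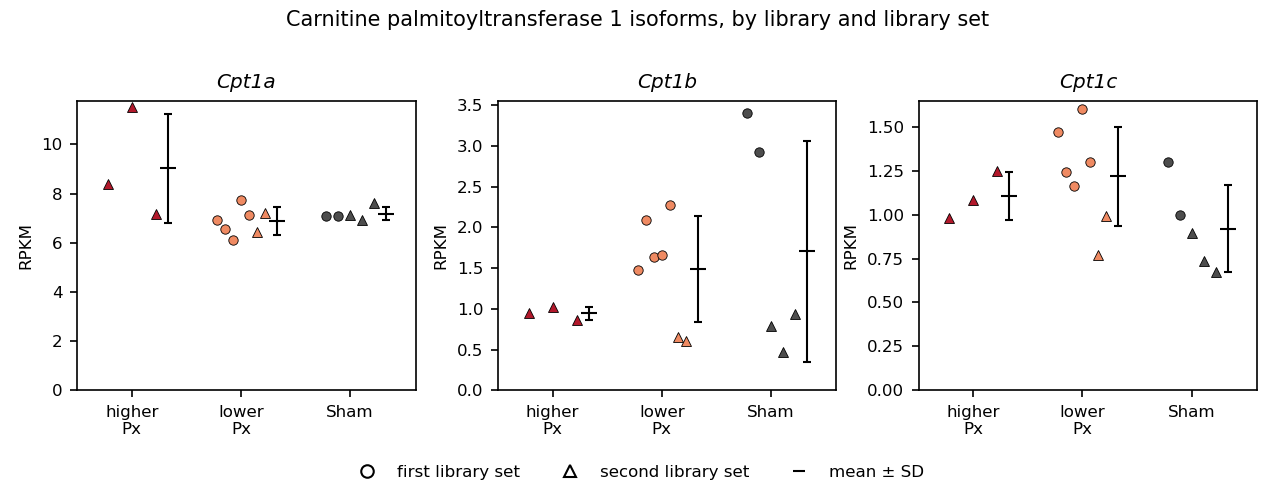
Levels (RPKM) of the CPT1 isoform genes in each library of higher-glucose Px (higher Px, n = 3), lower-glucose Px (lower Px, n = 7) and Sham (n = 5); circles are the first library set, triangles the second, and bars the mean ± SD. Cpt1a lies above Cpt1b and Cpt1c, and in the Cpt1b panel all circles lie above all triangles.

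Among the acyl-CoA dehydrogenases, which open each turn of beta-oxidation, all 4 were higher in Px with TMM scaling, while with library totals only Acadl kept the sign (0.20, not past the threshold). Acadl, the long-chain enzyme, ranged from 25.4 to 33.5 CPM with a median of 29.0 in Px, against 15, 17.6, 15.9, 16.6 and 17.4 CPM in Sham. Px and Sham did not overlap, and Acadl rose by 0.84 ± 0.08 (edgeR adjusted p = 3.01e-07), by 0.82 and 0.85 within the first and second library set. Acadvl, which acts on very long chains at the inner membrane, ranged from 34.3 to 53.6 CPM with a median of 38.2 in Px, against 28.1, 29.0, 29.6, 25.3 and 23 CPM in Sham. These ranges were also apart (0.59 ± 0.11, edgeR adjusted p = 0.000261). Acadm, the medium-chain enzyme, ranged from 22.2 to 35.3 CPM with a median of 26.4 in Px, against 16.3, 20, 18.3, 17.7 and 19.2 CPM in Sham (0.65 ± 0.12, edgeR adjusted p = 0.000161), again with no overlap. Acads, the short-chain enzyme, averaged 12 ± 3.43 CPM in Px and 8.17 ± 1.77 CPM in Sham (0.56 ± 0.19, edgeR adjusted p = 0.0162), and its ranges met. With the acinar score as a covariate only the Acadl call was kept. With the macrophage score, where no gene was called, none of the 4 was kept. The Acads call was also lost with the fibroblast score and within the first library set.

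The other steps of the mitochondrial spiral were mixed, with Hadh lower, Eci2 and Decr1 higher and 4 genes not past the threshold. Hadh (chromosome 2, 236353445 to 236395067), the short-chain 3-hydroxyacyl-CoA dehydrogenase, ranged from 360 to 566 CPM with a median of 467 in Px, against 832, 826, 948, 1030 and 950 CPM in Sham. The highest Px library lay well below the lowest Sham library. Hadh fell by 0.96 ± 0.11 on the log2 scale (edgeR adjusted p = 9.01e-07), by 0.95 within each library set and by 0.92 to 1 when any 1 library was left out. It was the most abundant of the 35 per exon length in both groups, with 284 ± 37.2 RPKM in Px and 553 ± 51.8 RPKM in Sham, followed by Ucp2. Its share of the summed RPKM of all 35 genes was 29.9% in Px and 48.2% in Sham, and the ranges of 24.9% to 32.8% and 47.1% to 49.4% were apart. In bulk islets, fewer cells of a type and less RNA per cell cannot be told apart, and the 9 beta cell markers took a smaller share of counts in the same Px libraries. With the macrophage or the fibroblast score as a covariate Hadh did not pass (-0.23 and -0.50, adjusted p = 0.894 and 0.351). No gene of all 15199 passed with the macrophage score, so that loss is not particular to Hadh.

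The trifunctional protein genes Hadha and Hadhb, whose products carry the hydratase, dehydrogenase and thiolase steps for long chains, stayed close together. Hadha averaged 142 ± 14.8 CPM in Px and 155 ± 17.9 CPM in Sham (-0.13 ± 0.09, edgeR adjusted p = 0.212), and Hadhb 107 ± 14 CPM in Px and 110 ± 14.5 CPM in Sham (-0.04 ± 0.10, adjusted p = 0.732). The log2 ratio of their counts was 0.26 to 0.55 in Px and 0.42 to 0.58 in Sham. They are divergent neighbours on chromosome 6: in RefSeq (GRCr8) their start sites lie 301 bases apart on opposite strands, so that the 250 bases before each start share 200 bases. In the count table's own annotation the gap is wider, with Hadhb ending at 27582995 on the minus strand and Hadha beginning at 27589657 on the plus strand. The RefSeq stretch before Hadha is shown for that reason, on its own strand at chr6:31907551-31907800, with the bases that also lie in the Hadhb stretch in capitals.
Hadha: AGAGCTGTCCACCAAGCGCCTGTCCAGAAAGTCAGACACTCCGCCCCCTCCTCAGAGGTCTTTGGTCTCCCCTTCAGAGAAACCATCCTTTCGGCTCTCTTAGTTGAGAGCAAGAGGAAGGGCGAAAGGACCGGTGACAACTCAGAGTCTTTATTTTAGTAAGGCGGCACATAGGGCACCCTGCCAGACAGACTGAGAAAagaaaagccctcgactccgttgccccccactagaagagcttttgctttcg
Other genes of these steps were Eci2, an enoyl-CoA isomerase, at 20.4 ± 2.89 CPM in Px and 14.2 ± 2.24 CPM in Sham (0.53 ± 0.12, edgeR adjusted p = 0.000744), and Decr1, a dienoyl-CoA reductase for unsaturated chains, at 35.9 ± 7.82 CPM in Px and 24.6 ± 2.6 CPM in Sham (0.54 ± 0.14, adjusted p = 0.00279). The sign of Eci2 turned with library totals (-0.10), the macrophage score (-0.56) and the fibroblast score (-0.14), and that of Decr1 with library totals (-0.14). Both calls were also lost with the acinar score, that of Decr1 with the macrophage score and that of Eci2 within the first library set. The gene span of Eci2 overlaps that of RGD1307537 on the opposite strand, with no shared exon bases. Eci1, the other mitochondrial isomerase, averaged 21.5 CPM in Px and 19.4 CPM in Sham (0.15 ± 0.11), and Acaa2, a thiolase, 23.3 CPM in Px and 21.5 CPM in Sham (0.11 ± 0.11), and neither passed (edgeR adjusted p = 0.237 and 0.396).

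**Figure D3:**
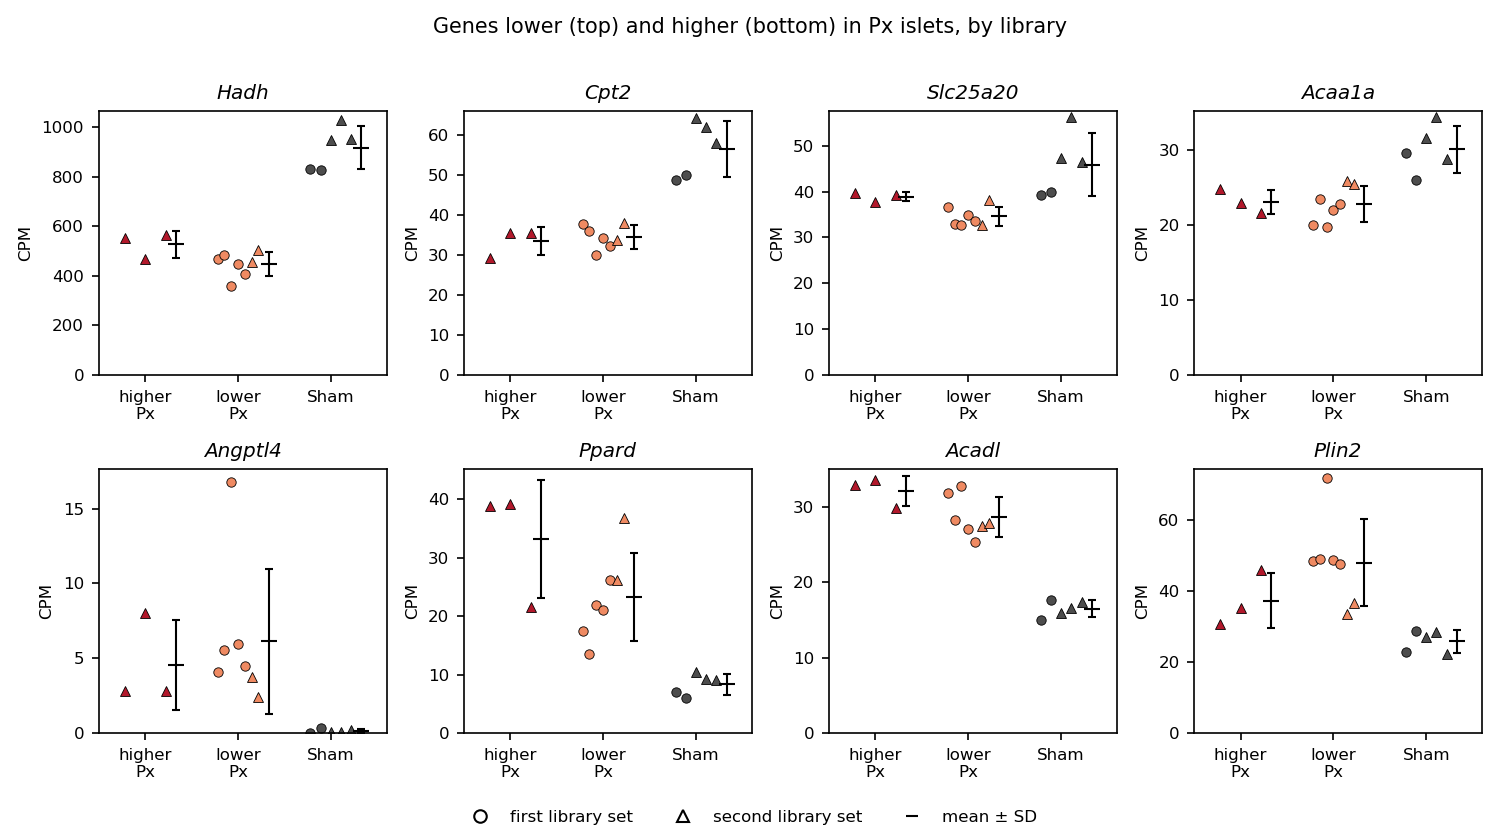
CPM in each library of higher-glucose Px (higher Px, n = 3), lower-glucose Px (lower Px, n = 7) and Sham (n = 5) for genes lower in Px (top) and higher in Px (bottom); circles are the first library set, triangles the second, bars the mean ± SD. Hadh reached 566 CPM at most in Px and 826 CPM at least in Sham, and Angptl4 2.43 CPM at least in Px and 0.354 CPM at most in Sham.

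Of the electron transfer genes, Etfb rose most. It ranged from 34.9 to 58.1 CPM with a median of 43.8 in Px, against 20.7, 24.6, 26.4, 32.3 and 21.6 CPM in Sham. No library of one group reached the other (0.84 ± 0.13, edgeR adjusted p = 2.65e-05). The Etfb call was lost with library totals and with the acinar or the macrophage score as a covariate. Etfa, its partner in the heterodimer, ranged from 31.1 to 52.7 CPM with a median of 37.8 in Px, against 31.4, 31.0, 36.4, 29.4 and 30.8 CPM in Sham. The groups overlapped, and the rise of 0.30 ± 0.12 was at the threshold (edgeR adjusted p = 0.0439): it did not pass with DESeq2 (0.27, adjusted p = 0.053), with limma voom (0.27, 0.0614) or in 8 of the 15 fits without 1 library (adjusted p of 0.0228 to 0.0999 over all 15). Within the first library set it was 0.08 (0.54). Etfdh ranged from 28.4 to 56.6 CPM with a median of 31.7 in Px, against 29.2, 31.3, 30.8, 28.9 and 32.8 CPM in Sham, and did not pass (0.16 ± 0.13, edgeR adjusted p = 0.299).

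Peroxisomal genes gave 1 lower and 0 higher of 3 in Px, against 30.2% lower and 34.5% higher of all genes. Acaa1a, the peroxisomal thiolase, ranged from 19.8 to 25.9 CPM with a median of 22.9 in Px, against 29.7, 26.1, 31.6, 34.5 and 28.9 CPM in Sham. Px lay wholly below Sham (-0.40 ± 0.08, edgeR adjusted p = 0.000438). The Acaa1a call was lost with endocrine granule scaling and with the fibroblast score as a covariate. It was also lost with the macrophage score, as every gene's call was. Ehhadh, the peroxisomal bifunctional enzyme of straight chains, ranged from 3.59 to 8.98 CPM with a median of 4.45 in Px, against 2.33, 3.03, 4.72, 3.73 and 5.04 CPM in Sham. The groups overlapped and it did not pass (0.51 ± 0.25, edgeR adjusted p = 0.0854). It passed with the library set as a term (0.58, 0.00564), within the first set (0.59, 0.0479), when scaled by endocrine granule genes (0.95, 0.0024) and when the fibroblast score was a covariate (2.14, 0.0472). Hsd17b4, the bifunctional enzyme of branched chains, averaged 69.1 ± 9.27 CPM in Px and 63.4 ± 5.32 CPM in Sham (0.13 ± 0.10, edgeR adjusted p = 0.266). Acot2, a mitochondrial thioesterase, averaged 3.05 CPM in Px and 2.92 CPM in Sham (0.06 ± 0.18, adjusted p = 0.785), and the cytosolic Acot1 held 48 reads in all Px and 17 in all Sham libraries. Acot1 and Acot2 are near-identical copies, and 374 exon bases of Acot2 overlap Heatr4 on the opposite strand, so both values are uncertain.

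Angptl4 (chromosome 7, 18627808 to 18634079) encodes a secreted inhibitor of lipoprotein lipase and is a textbook PPAR target. It ranged from 2.43 to 16.8 CPM with a median of 4.27 in Px, against 0, 0.354, 0.0875, 0.0889 and 0.229 CPM in Sham. Sham libraries held 0 to 7 reads of it, 15 in all, and Px libraries 36 to 487 reads. The groups were far apart (5.21 ± 0.65, edgeR adjusted p = 3.53e-06), with 5.30 and 4.88 within the first and second library set, although the size of a fold against so few reads is uncertain. With the macrophage or the fibroblast score as a covariate the value was 0.89 or 2.18 and did not pass (adjusted p = 0.859 and 0.283). No gene passed with the macrophage score. Plin2, which coats lipid droplets, ranged from 30.8 to 71.8 CPM with a median of 46.8 in Px, against 22.7, 28.7, 26.9, 28.4 and 22.2 CPM in Sham. All Px libraries lay above Sham (0.79 ± 0.17, edgeR adjusted p = 0.000543), but the sign turned with the macrophage (-0.54) or fibroblast score (-0.55) as a covariate. The Plin2 call was also lost with library totals. The highest Px value of both genes was in lower-glucose replicate 8, which also had the highest macrophage marker share of all libraries, 0.505%; the part of those cells in either result was not tested.

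Ucp2, the inner-membrane carrier long studied in beta cells, ranged from 187 to 319 CPM with a median of 226 in Px, against 184, 160, 234, 332 and 249 CPM in Sham. Px lay within the Sham range (0.04 ± 0.16, edgeR adjusted p = 0.833). Among the acyl-CoA synthetases, Acsl5 was higher in Px and the other 3 did not pass. Acsl5 averaged 63.5 ± 6.17 CPM in Px and 54.2 ± 6.59 CPM in Sham (0.23 ± 0.09, edgeR adjusted p = 0.0319), and the call was lost without Sham replicate 23, 24 or 26 (0.16, 0.22 and 0.21). It was also lost with library totals, without the filter on low counts, with each of the acinar, macrophage and fibroblast scores and within either library set. Acsl1 ranged from 26.5 to 62.0 CPM with a median of 44.8 in Px, against 33.3, 34, 38.4, 37.5 and 38.6 CPM in Sham, so that Px values lay on both sides of Sham (0.26 ± 0.16, edgeR adjusted p = 0.161; 0.32 and past the threshold without lower-glucose replicate 2). Acsl4, which prefers arachidonic acid, ranged from 38.4 to 55.4 CPM with a median of 41.9 in Px, against 47.8, 46.0, 44.2, 44.6 and 57.3 CPM in Sham (-0.14 ± 0.09, edgeR adjusted p = 0.194). Acsl3 averaged 17.1 CPM in Px and 16.8 CPM in Sham (0.02 ± 0.10, adjusted p = 0.837).

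With TMM scaling and no covariate, Ppard was higher and Ppara lower in Px. Ppard (chromosome 20, 7818289 to 7885333) ranged from 13.5 to 39.1 CPM with a median of 24 in Px, against 6.93, 6.07, 10.4, 9.20 and 9.06 CPM in Sham. Every Px library exceeded every Sham library (1.65 ± 0.25, edgeR adjusted p = 2.07e-05), and the value was 0.46 with the acinar score as a covariate (adjusted p = 0.404). Ppara ranged from 1.21 to 3.44 CPM with a median of 2.05 in Px, against 3.17, 3.39, 2.76, 2.98 and 3.78 CPM in Sham. The ranges overlapped, Ppara fell by 0.62 ± 0.23 (edgeR adjusted p = 0.0234), and the call was lost without Sham replicate 27 (-0.56) or within the second library set (-0.33, adjusted p = 0.259). Its sign turned with the macrophage (0.46) or the fibroblast score (1.07) as a covariate. The Ppara call was also lost with endocrine granule scaling. Ppargc1a, which encodes PGC-1alpha, ranged from 2.11 to 5.70 CPM with a median of 4.49 in Px, against 1.53, 2.93, 3.85, 1.82 and 3.04 CPM in Sham. It rose by 0.66 ± 0.25 with overlapping groups (edgeR adjusted p = 0.0293), lost the call without Sham replicate 23 or 26 (0.51 and 0.54) or within the first library set (0.56, adjusted p = 0.233), and had the opposite sign with the acinar score as a covariate (-0.82, adjusted p = 0.0678). The Ppargc1a call was also lost with library totals, with limma voom and with the macrophage or the fibroblast score.

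In all, 7 of the 34 tested genes had every Px library above every Sham library, against 20.8% of all genes tested, and 3 had every Px library below, against 16.4%. Those above were Angptl4, Ppard, Acadl, Etfb, Plin2, Acadm and Acadvl, and those below Hadh, Cpt2 and Acaa1a. In the authors' deposited table, 12 of these genes were called higher and 5 lower in Px, and all 17 calls were also made here. Deposited beside the same counts, it is not an independent test. The share called of all its 15203 genes is not given here. The authors' deposited table did not call Etfa (0.27, adjusted p = 0.0613) or Ppargc1a (0.62, 0.0556).

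Promoter stretches are shown for Hadh and Cpt2, 2 of the genes whose Px libraries lay below all Sham libraries, and for Angptl4, the gene with the largest rise. RefSeq (GRCr8) promoter windows were matched by symbol for 29 of the 35 genes, not for Acaa2, Cpt1b, Ppard, Decr1, Acadl and Cpt1c. The 29 genes had 30 windows, and a gene counted if any of its windows matched. The share of all windows was counted per window, over all genes with a window, so the 2 shares differ in unit and gene set. In the 250 bases before the start, searched on both strands, GGGCGG (a GC box, the motif of Sp1-type factors) was in 19 of the 29 genes (65.5%) and in 30.5% of all 33469 windows. The direct repeat of AGGTCA with 1 base between, which PPAR binds with RXR, was in 0 of the 29 and in 0.0508% of all windows, and AGGTCA alone, which it contains, was in 3 (Acadvl, Eci1 and Hsd17b4) and in 14.1% of all windows. Hadh and Cpt2, both lower in Px, and Angptl4, higher in Px, follow with each GC box or its reverse complement CCGCCC in capitals, from the minus strand of chr2:222504447-222504696, chr5:127910819-127911068 and chr7:15258682-15258931.
Hadh: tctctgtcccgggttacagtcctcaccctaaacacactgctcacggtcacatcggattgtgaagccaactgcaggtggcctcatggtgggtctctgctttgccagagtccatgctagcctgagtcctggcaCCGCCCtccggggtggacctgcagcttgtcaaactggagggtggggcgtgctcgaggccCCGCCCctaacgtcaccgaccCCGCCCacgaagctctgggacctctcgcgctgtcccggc
Cpt2: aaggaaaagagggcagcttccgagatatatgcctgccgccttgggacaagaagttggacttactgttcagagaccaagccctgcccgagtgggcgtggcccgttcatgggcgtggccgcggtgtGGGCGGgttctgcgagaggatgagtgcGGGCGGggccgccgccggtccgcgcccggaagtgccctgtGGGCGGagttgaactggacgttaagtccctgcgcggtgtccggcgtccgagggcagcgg
Angptl4: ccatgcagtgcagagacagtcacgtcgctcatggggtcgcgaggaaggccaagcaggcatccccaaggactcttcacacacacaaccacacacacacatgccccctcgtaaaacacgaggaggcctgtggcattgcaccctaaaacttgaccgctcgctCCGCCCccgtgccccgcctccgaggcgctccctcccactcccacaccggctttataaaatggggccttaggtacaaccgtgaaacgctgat
Hadh and Cpt2 hold 3 GC boxes each and Angptl4 holds 1. A match is a string of letters, and nothing was measured on binding.

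Ratios between genes within a library do not depend on how libraries are scaled, and the 6 ratios given here were chosen after values were seen and are descriptions. The log2 ratio of Hadh to Hadha counts was 1.35 to 1.91 in Px and 2.49 to 2.70 in Sham. Cpt2 to Cpt1a was -0.49 to 0.34 in Px and 0.66 to 1.05 in Sham, so the ratio was lower in every Px library than in any Sham library. Acadl to Hadha was -2.52 to -1.99 in Px and -3.40 to -3.04 in Sham, and Ppard to Ppara was 3.20 to 4.06 in Px and 0.84 to 1.91 in Sham. For these 4 ratios Px and Sham did not overlap. Slc25a20 to Cpt1a was -0.40 to 0.34 in Px and 0.35 to 0.91 in Sham, which nearly touched. The differences of means within the first and second library set had the same sign for all 6 ratios, such as -0.92 and -0.77 for Hadh to Hadha.

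**Figure D4:**
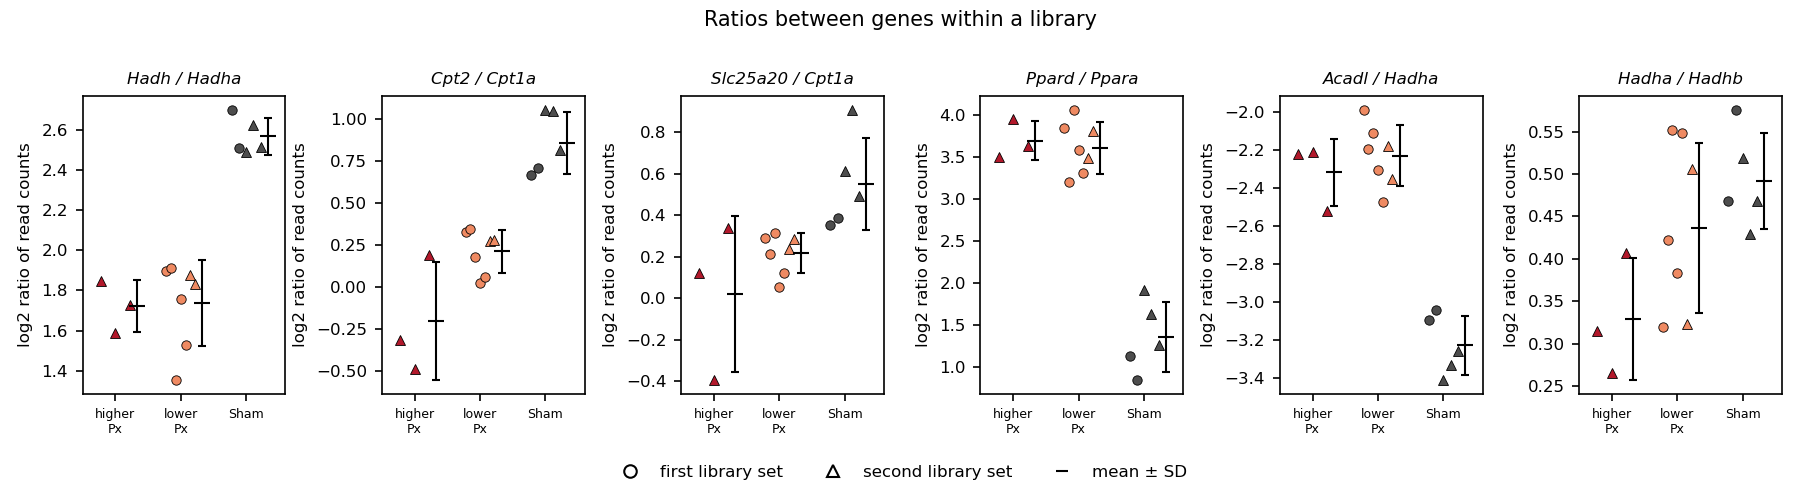
Log2 ratio of read counts of 6 gene pairs in each library of higher-glucose Px (higher Px, n = 3), lower-glucose Px (lower Px, n = 7) and Sham (n = 5); circles are the first library set, triangles the second, bars the mean ± SD. Hadh relative to Hadha lies at 1.91 or below in Px and at 2.49 or above in Sham, while the Hadha to Hadhb panel shows overlapping groups on a narrow scale.

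Between Px rats, higher blood glucose went with higher levels of some beta-oxidation and flavoprotein genes with TMM scaling; scaled by library totals the sign turned for Acadm, Hadhb, Etfa and Etfdh (-0.10, -0.13, -0.01 and -0.05), and by endocrine granule genes for Acadm and Hadhb (-0.03 and -0.06). Of 34 genes tested, 5 were higher in higher- than in lower-glucose Px and 0 were lower (edgeR quasi-likelihood, adjusted p below 0.05), against 3.29% of all 15661 genes called higher and 1.59% called lower. Those 5 were Decr1, Etfa, Hadhb, Etfdh and Acadm. At an unadjusted p below 0.05, 14 of the 34 genes were higher and 0 lower, against 1773 higher and 1790 lower of all 15661 genes. DESeq2 called 6 of the 34 higher and 0 lower, and its share of all genes is not given. The median log2 difference was 0.27 over the 34 genes and -0.02 over all genes. Ranges of the groups did not overlap for 8 of the 34, all higher, against 5.39% of all genes above and 4.46% below, and these were Hadha, Hadhb, Decr1, Etfa, Etfb, Etfdh, Ucp2 and Ppargc1a.

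The library set and the glucose group cannot be fully told apart here, since all 3 higher-glucose libraries and 2 of the 7 lower-glucose libraries are in the second set. With surgery and no glucose term in the edgeR fit, Hadhb, Etfa and Acadm were higher in the second set (0.27, 0.31 and 0.27). Decr1 and Etfdh did not pass in that fit (0.29 and 0.18). With the set as a term in the fit, or within the second set alone (3 against 2 libraries), edgeR called 0 of the 34 genes. For these and the other refits in this paragraph, the share of all genes called is not given. Their counts are therefore not a result about the 34 genes alone, and few libraries leave little power. Leaving out each library in turn gave 0 to 6 calls, with 0 without higher-glucose replicate 15, 2 without higher-glucose replicate 13 or lower-glucose replicate 2 or 4, and 3 without lower-glucose replicate 10 or Sham replicate 25 or 27. Scaled by library totals 0 were higher and 0 lower, and with endocrine scaling 0 were higher and 4 lower. No marker share passed an adjusted p of 0.05 between the glucose groups in exact permutation tests. Fibroblast markers stood at 0.207% ± 0.0797 of counts in higher-glucose Px and 0.680% ± 0.303 in lower-glucose Px (SD, n = 3 and 7; two-sided exact permutation p = 0.0167, the smallest that 120 splits allow, adjusted p = 0.167), and with that score as a covariate edgeR called 0 of the 34 genes. Beta cell markers took 3.71% in higher- and 6.48% in lower-glucose Px (adjusted exact permutation p = 0.222), and delta and PP cell markers 0.181% in higher- and 0.127% in lower-glucose Px (0.234). By the edgeR test, 3 of 5 delta and PP markers and 3 of 8 endocrine granule genes were higher in higher-glucose Px, and 4 of 16 fibroblast markers lower; their part in the calls was not tested.

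Decr1 stood at 49.8, 48.6 and 39.3 CPM in higher-glucose Px, against 27.1 to 35.3 CPM with a median of 33.2 in lower-glucose Px. The groups did not overlap (0.54 ± 0.11, edgeR adjusted p = 0.0089), and the difference was 0.48 with the library set as a term (adjusted p = 0.0793) and 0.52 within the second set (0.192). Etfa stood at 44.5, 52.7 and 48.0 CPM in higher-glucose Px, against 31.1 to 40.5 CPM with a median of 34.7 in lower-glucose Px (0.47 ± 0.10, edgeR adjusted p = 0.0133), also without overlap. With the set as a term its difference was 0.35 (adjusted p = 0.117).

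Hadhb stood at 123, 129 and 129 CPM in higher-glucose Px, against 96.2 to 102 CPM with a median of 99.1 in lower-glucose Px. Both groups were narrow and apart (0.36 ± 0.09, edgeR adjusted p = 0.0315; 0.24 with the set as a term, 0.226). Etfdh stood at 35.0, 56.6 and 35.3 CPM in higher-glucose Px, against 28.4 to 33.5 CPM with a median of 30.9 in lower-glucose Px. Replicate 15 was far above the other 2, and without it the difference was 0.19 and did not pass, against 0.46 ± 0.12 with it (edgeR adjusted p = 0.0403). Acadm stood at 35.3, 35.3 and 33 CPM in higher-glucose Px, against 22.2 to 34 CPM with a median of 25.7 in lower-glucose Px. The groups overlapped through lower-glucose replicate 16, the call (0.40 ± 0.11, edgeR adjusted p = 0.0479) was lost in 13 of the 15 fits without 1 library, and within the second set the difference was 0.22 (0.565).

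**Figure D5:**
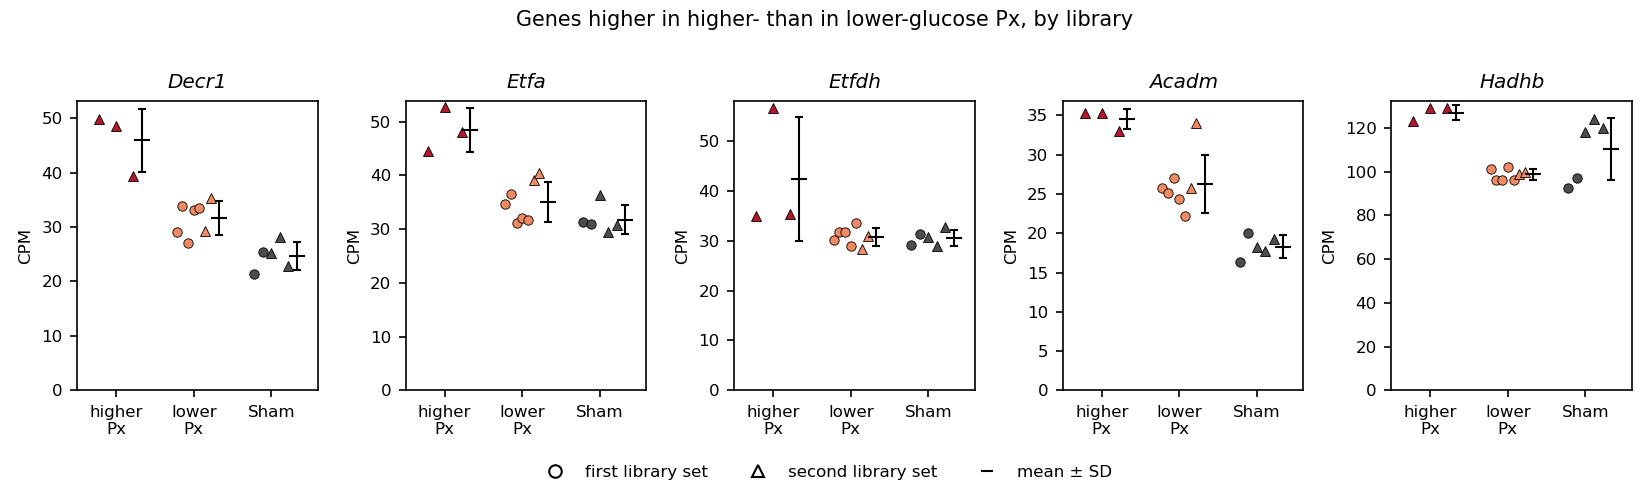
CPM of the 5 genes called between higher-glucose Px (higher Px, n = 3) and lower-glucose Px (lower Px, n = 7), with Sham (n = 5) beside them; circles are the first library set, triangles the second, bars the mean ± SD. In the Decr1, Etfa, Etfdh and Hadhb panels all higher-glucose libraries lie above all lower-glucose ones, and all higher-glucose points are triangles.

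Of the other genes, Cpt1a stood at 36.4, 49.6 and 31.1 CPM in higher-glucose Px and 26.4 to 33.6 CPM in lower-glucose Px (0.39 ± 0.12, edgeR adjusted p = 0.0613), with replicate 15 again highest. Ucp2 stood at 319, 299 and 261 CPM in higher-glucose Px and 187 to 250 CPM in lower-glucose Px, with no overlap (0.44 ± 0.17, edgeR adjusted p = 0.136). Hadh stood at 551, 466 and 566 CPM in higher-glucose Px and 360 to 505 CPM in lower-glucose Px (0.24 ± 0.12, edgeR adjusted p = 0.258). Neither Ucp2 nor Hadh passed. For Cpt2 (-0.04 ± 0.11), Eci2 (0.00 ± 0.14) and Acaa1a (0.03 ± 0.11) the glucose groups were within 0.05 of each other on the log2 scale. Plin2 (-0.36 ± 0.19), Angptl4 (-0.43 ± 0.53) and Cpt1b (-0.66 ± 0.55) had the lowest differences and did not pass (edgeR adjusted p = 0.262, 0.648 and 0.486).

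Set against the same Sham libraries, which both comparisons share, higher-glucose Px had 18 of 34 genes higher and 3 lower (all genes 32.2% and 25.5%), and lower-glucose Px 9 higher and 6 lower (all genes 33.6% and 30.0%). Higher-glucose Px had Etfdh at 0.46, Ehhadh at 0.92, Hsd17b4 at 0.31, Cpt1a at 0.33 and Ppargc1a at 1.01 above Sham, each past the edgeR threshold, where lower-glucose Px had 0.00, 0.28, 0.03, -0.07 and 0.46, none past it. Of these, the glucose groups differed by the test only for Etfdh. Hadh was lower by 0.80 in higher- and by 1.04 in lower-glucose Px, and Cpt2 by 0.76 and 0.72. Ppara was lower past the threshold in lower-glucose Px (-0.77, edgeR adjusted p = 0.00802) and not in higher-glucose Px (-0.33, 0.346), with no called difference between them (0.44 ± 0.27, adjusted p = 0.343).

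Within the 7 lower-glucose Px rats, the slope of expression on log2 blood glucose was called by edgeR for 0 of the 34 genes and 0 of 13752 genes (0% in either direction). At an unadjusted p below 0.05, 837 genes had a positive and 440 a negative slope. Among the 34, Cpt1b was the one gene at that level (2 ± 0.50 log2 per doubling of glucose, edgeR adjusted p = 0.381), and DESeq2 called 1 of the 34. The lowest glucose values, 104 and 119, belong to libraries of the second set, where Cpt1b was low in all libraries.

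The other genes of these pathways, on lists named below, moved in both directions in Px relative to Sham. Of 27 tested oxidation enzymes and transporters outside the 35, 8 were higher and 10 lower (median -0.16). Among all genes tested, 34.5% were called higher and 30.2% lower, so both counts are near that background. Acad11 (-0.79 ± 0.09), Acad9 (-0.57 ± 0.08) and Pex7, a peroxisomal import receptor (-0.52 ± 0.09), were lower, while Crot, which makes acyl-carnitine in peroxisomes (0.72 ± 0.10), Pex11a (0.90 ± 0.17), Acad8 of valine breakdown (1.01 ± 0.19) and Hsd17b10 (0.66 ± 0.16) were higher. Mlycd, which removes malonyl-CoA, did not pass in Px relative to Sham (0.01 ± 0.21) or between the glucose groups (0.69 ± 0.20, edgeR adjusted p = 0.0632).

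Genes of fatty acid uptake and lipolysis gave 8 higher and 3 lower of 15 tested in Px (median 1.37), against 34.5% and 30.2% of all genes. Fabp4, a fatty acid carrier of fat cells, macrophages and capillaries, stood at 49.9 ± 13.8 CPM in Px and 6.90 ± 1.65 CPM in Sham (2.85 ± 0.22), Dbi, the acyl-CoA binding protein, at 19.7 ± 5.17 CPM in Px and 4.82 ± 0.844 CPM in Sham (2.03 ± 0.19), and Lpl, lipoprotein lipase, at 102 ± 48.1 CPM in Px and 17.9 ± 2.88 CPM in Sham (2.50 ± 0.33, edgeR adjusted p of 6.25e-06 or below for the 3). Lipe, hormone-sensitive lipase (1.5 ± 0.14), and Fabp5 (3.84 ± 0.48) were higher too. Ffar1, the free fatty acid receptor of beta cells, stood at 26.9 ± 4.11 CPM in Px and 66.6 ± 4.56 CPM in Sham (-1.31 ± 0.10), and the lipoprotein receptor gene Vldlr was lower (-0.97 ± 0.09). Higher- relative to lower-glucose Px had more Slc27a1 (0.81 ± 0.18, edgeR adjusted p = 0.0147) and Mgll (1.01 ± 0.27, adjusted p = 0.0396). For these and the other genes outside the 35, no value with another scaling or with the library set as a term is given. All 3 higher-glucose libraries are in the second set, so set and glucose cannot be fully told apart for them either. Pnpla2 was below the filter, and Cd36 was not analysed here. Of 7 fat cell markers, Lep, Plin1 and Retn stayed below 1 CPM in all libraries, Adipoq stood at 0.273 to 2.87 CPM in Px and 0 to 0.0506 CPM in Sham, and the summed level was 31.4 to 80.3 CPM in Px and 5.56 to 10.2 CPM in Sham, most of it Fabp4; the part of fat cells in these results was not tested.

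Lipid droplet and triglyceride genes gave 8 higher and 5 lower of 16 in Px (median 0.21). For this list and for the ketone body and thioesterase genes below, the shares of all genes were 34.5% higher and 30.2% lower. Plin3, a droplet coat gene (2.79 ± 0.23), Cidec, which fuses droplets (2.34 ± 0.29), Gpat3 (1.86 ± 0.25) and the lipolysis inhibitor G0s2 (2.01 ± 0.27) were higher, and Fitm2, which helps droplets form (-0.61 ± 0.07), Gpat4 (-0.52 ± 0.07), Acsl6 (-0.71 ± 0.13) and Bscl2, which encodes seipin (-0.41 ± 0.08), were lower (edgeR adjusted p of 0.000413 or below). Lpin1 was higher in higher- than in lower-glucose Px (0.56 ± 0.14, edgeR adjusted p = 0.0293), with TMM scaling and no set term. Of 6 ketone body genes, 3 were higher and 2 lower in Px: Bdh2 was among the higher (3.3 ± 0.43), and the ketone-using Aacs (-1.40 ± 0.12) and Oxct1 (-0.80 ± 0.09) were lower (edgeR adjusted p of 4.8e-06 or below for the 3). Of 6 further thioesterases tested, Acot9 (0.97 ± 0.10), Acot13 (0.59 ± 0.18) and Acot7 (0.68 ± 0.21) were higher in Px and 0 lower.

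Regulators and PPAR targets outside the 35 gave 6 higher and 9 lower of 23 tested in Px (median -0.03), against 34.5% and 30.2% of all genes. Pparg, the fat cell receptor, stood at 1.33 ± 0.491 CPM in Px and 0.452 ± 0.145 CPM in Sham (1.55 ± 0.31, edgeR adjusted p = 0.000328), with Nr1h3, a liver X receptor (2.33 ± 0.22), Rxrg (3.38 ± 0.47) and Vnn1 (1.12 ± 0.18) also higher. The cofactor genes Ncoa1 (-1 ± 0.08) and Ncor1 (-0.69 ± 0.08), the coenzyme A carrier gene Slc25a42 (-0.95 ± 0.10) and Esrrg (-0.85 ± 0.10) were lower. Acacb, whose product makes malonyl-CoA at the mitochondrion, stood at 16.7 to 53.5 CPM in higher-glucose Px, 7.91 to 19.4 CPM in lower-glucose Px and 1.29 to 3.69 CPM in Sham, higher in Px than in Sham (3.11 ± 0.50, edgeR adjusted p = 4.43e-05) and in higher- than in lower-glucose Px (1.5 ± 0.33, adjusted p = 0.0147). Acaca, the cytosolic form, stood at 47.2 to 51.2 CPM in higher-glucose Px and 25.4 to 34 CPM in lower-glucose Px (0.74 ± 0.10, edgeR adjusted p = 0.000551), with 34.3 to 45.2 CPM in Sham. Pdk4, a PPAR target that restrains glucose oxidation, was higher in higher- than in lower-glucose Px (0.80 ± 0.22, edgeR adjusted p = 0.0437) and did not pass in Px relative to Sham (-0.14 ± 0.24). The glucose differences of Acacb, Acaca and Pdk4 are given with TMM scaling and no set term only. Cyp4a8 had 27 to 46 reads in higher-glucose Px, 0 to 8 in lower-glucose Px and 0 in each Sham library; its 2 lower-glucose libraries with reads belong to the second set.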

How the data were processed

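Paired-end, polyadenylated RNA libraries of 15 rats were used: 10 Px (3 higher- and 7 lower-glucose, split at a labelled value of 300) and 5 Sham. The authors deposited raw read counts per gene with each gene's exon length, and, in a second table, log2 fold changes with adjusted p-values, per the file headers. The submitters' processing notes name FastQC, Subread, featureCounts and limma. No version, genome build, annotation or strand setting is named: these were not given in the sources used here, so coordinates of the count table stand without a build.

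Counts were tested with edgeR 4.0.16 in R 4.3.3 (TMM scaling, filterByExpr with a minimum count of 10 and a minimum total of 15, quasi-likelihood F test, two-sided), with Benjamini-Hochberg adjustment over all genes tested and a threshold of 0.05. All Px were set against Sham in 1 fit, the 3 groups in another, and the slope on log2 glucose was fitted in lower-glucose Px. The fits were tested on simulated data. Marker shares were compared with exact permutation tests (scipy 1.17.1). Alternatives were DESeq2 1.42.0, limma 3.58.1 voom, other scalings, no filter, marker scores as covariates, each library left out, and the library sets, the last chosen after seeing the data. Of 28914 genes, 7559 had 0 counts in all libraries. Library totals of 12.2 to 33.4 M counts set the precision, so genes with few reads are the least certain.

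Every one of the 35 genes is named. Values by library are given for genes called between glucose groups, for the called rises and falls largest in Px relative to Sham, and for a set panel, and from each other list up to 4 called genes a direction by smallest p, with a panel of 10. Some genes under that rule are not reported here. The 35 genes and all lists were chosen with earlier results of these data known.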

Additional observations from a re-analysis of the deposited data

Results flagged for a closer look

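A gap test on single libraries (Dixon's 95% critical value) picked out 12 of 105 combinations of gene and group. The groups were all Px, lower-glucose Px and Sham. The test's rate of 1 in 20 holds for independent groups of normal values. Lower-glucose Px is part of all Px and CPM need not be normal, so the 12 cannot be set against that rate. Higher-glucose Px replicate 15 stood above the other Px libraries for Etfdh (56.6 CPM, next 35.3), Cpt1a (49.6 CPM, next 36.4) and Crat (33.2 CPM, next 22). Lower-glucose Px replicate 8 stood above the other libraries, both of all Px and of lower-glucose Px, for Angptl4 (16.8 CPM) and Plin2 (71.8 CPM). Within lower-glucose Px, replicate 16 was high for Acadm (34 CPM, next 27) and replicate 10 low for Acsl5 (51.5 CPM, next 60.3). Within Sham, replicate 24 was high for Eci2 (18.0 CPM, next 14), replicate 25 for Etfa (36.4 CPM, next 31.4) and replicate 27 for Acsl4 (57.3 CPM, next 47.8).

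The effects of Px relative to the shared Sham libraries differed between higher- and lower-glucose Px by the edgeR test for 5 genes, with log2 differences of 0.54 for Decr1, 0.47 for Etfa, 0.46 for Etfdh, 0.40 for Acadm and 0.36 for Hadhb. All 5 were higher in higher-glucose Px, and none passed with the library set as a term.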

How the results depend on the processing

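Of 1802 values of single genes under alternatives, 1610 kept direction and side of the threshold or changed sign without being called (113 of these), 122 lost a call, 32 gained one and 38 turned sign; no cause was tested. Counts below are genes higher and lower. They move with the shares of all genes called. In Px relative to Sham these shares were 17.5% higher and 52.3% lower with library totals and 48.9% and 6.57% with endocrine scaling. With the fibroblast score they were 7.95% and 4.38%, and with the acinar score 20.9% and 17.0%. Shares for the other comparisons and for fits without 1 library are not given, so those counts are no result about these genes alone. With library totals they were 2 and 16 (Px relative to Sham), 2 and 17 (higher-glucose Px relative to Sham), 2 and 12 (lower-glucose Px relative to Sham) and 0 higher between glucose groups. Endocrine scaling gave 26 and 1 in Px relative to Sham, 27 and 1 in lower-glucose Px relative to Sham, and 0 and 4 between glucose groups. With the acinar score as a covariate, 4, 3 and 5 were higher in Px, higher- and lower-glucose Px relative to Sham, and 2 between glucose groups. With the macrophage score all 3 comparisons with Sham gave 0 and 0. With the fibroblast score they gave 8 and 1, 1 and 0, and 0 and 0, and between glucose groups 0 higher. With the library set as a term 14 were higher in lower-glucose Px relative to Sham and 0 between glucose groups. The first set alone gave 9 higher in Px, and the second alone 0 between glucose groups. Without the filter 2 were higher between glucose groups, and DESeq2 gave 1 positive slope.

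Leaving out 1 library gave 11 to 15 higher and 4 to 5 lower in Px relative to Sham, 12 to 19 and 3 to 4 in higher-glucose Px, 9 to 11 and 5 to 7 in lower-glucose Px, 0 to 6 and 0 between glucose groups, and 0 for the slope. Sign turned with library totals in Px relative to Sham for Cpt1a (-0.61), Crat (-0.24), Acadm (-0.04), Acads (-0.13), Acadvl (-0.09), Eci1 (-0.50), Eci2 (-0.10), Decr1 (-0.14), Acaa2 (-0.52), Etfa (-0.39), Etfdh (-0.51), Hsd17b4 (-0.55), Acot2 (-0.61), Ucp2 (-0.62), Acsl3 (-0.61), Acsl5 (-0.41) and Ppargc1a (-0.05). With endocrine scaling it turned for Slc25a20 (0.10), Hadha (0.31), Hadhb (0.40) and Acaa1a (0.05). With the acinar score it turned for Etfa (-0.16), Acsl5 (-0.07) and Ppargc1a (-0.82). With the macrophage score it turned for Eci2 (-0.56), Plin2 (-0.54), Acsl5 (-0.08) and Ppara (0.46), and with the fibroblast score for Eci2 (-0.14), Plin2 (-0.55) and Ppara (1.07). Between glucose groups it turned with library totals for Acadm (-0.10), Hadhb (-0.13), Etfa (-0.01) and Etfdh (-0.05), and with endocrine scaling for Acadm (-0.03), Hadhb (-0.06) and Acaa1a (-0.39).

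No paired analysis was possible because every library has a replicate number of its own. Low counts limit Angptl4 in Sham, Acot1 and Cyp4a8. Acinar and macrophage marker shares did not overlap between Px and Sham, so cell makeup and expression within cells cannot be told apart. Library set and glucose group cannot be fully told apart.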
